A study of Mus musculus with 24 samples.

Results

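Hippocampal neuropeptide genes were examined in bulk mRNA sequencing of 24 female C57BL/6 mice. The set comprised the 10 genes Sst, Npy, Cck, Vip, Penk, Pdyn, Tac1, Tac2, Crh and Cort, which were found by gene symbol among the 46983 genes of the deposited count table. Tissue came from punches of frozen brains, 1 mm in diameter, which included the dorsal and the ventral hippocampus. The mice formed 4 groups of 6. Fkbp5lox/lox mice carried loxP-flanked alleles of Fkbp5, the gene for the stress-related co-chaperone FKBP51, had no Cre recombinase and served as littermate wild types. In Fkbp5Nex mice the same alleles were recombined by Cre expressed from the Nex locus (gene symbol Neurod6), which acts from embryonic life on in glutamatergic neurons of the forebrain but, by the study's methods, spares the dentate gyrus. Within each genotype, 6 mice had been raised with limited bedding and nesting from postnatal day 2 to 9 (early life stress, ELS) and 6 under control conditions. Mice of this cohort were tested for behaviour at 6 months of age before the brains were taken. ELS was given to whole litters, and the labels used here do not say which mice were littermates, so that p-values measure the spread between these mice only.

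Neuropeptides are cut from larger precursor proteins in the secretory pathway, are stored in dense-core vesicles together with granins, and act on G protein-coupled receptors. In the hippocampus several of them define classes of GABAergic interneurons. Somatostatin (Sst) marks dendrite-targeting interneurons, neuropeptide Y (Npy) is made by neurogliaform, ivy and many Sst cells, and cholecystokinin (Cck) and vasoactive intestinal peptide (Vip) mark further classes, while pyramidal neurons also transcribe Cck. Prodynorphin (Pdyn) is made by dentate granule cells and their mossy fibres, and proenkephalin (Penk) by scattered interneurons and entorhinal afferent neurons.

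The Sst promoter is the textbook example of a cAMP response element, the palindrome TGACGTCA to which CREB binds. The set of RefSeq promoters used here (GRCm38.p6, from 250 bases before to 50 bases after the transcription start) held 8 of the 10 genes. Penk and Crh were missing from it and were not searched. Among the 8 genes searched, the full palindrome was found only in the promoter of Sst, from position -48 to -41 relative to the start. It was found in 1.79% of all 32851 mouse promoters of the set. Its core TGACG, searched on both strands and contained in the palindrome, was found in the promoters of 5 of the 8 genes, namely Sst, Cck, Vip, Tac1 and Cort, compared with 20.8% of all promoters. A TATAAA box was found in 1 of the 8, that of Vip, compared with 13.6% of all promoters. The following windows, from 100 bases before to 20 bases after the start, are shown for Sst and Tac1 and for Npy and Vip, pairs of genes whose mRNA varied together between mice. Capitals mark the core on either strand, and a match describes the letters only. The core lies at -43 to -39 in the Tac1 window, on the minus strand, and at -79 to -75 in the Vip window, and that of Npy holds none. The Sst window is chr16:23890825-23890944 (minus strand), that of Tac1 chr6:7554961-7555080 (plus strand), that of Npy chr6:49822610-49822729 (plus strand) and that of Vip chr10:5639118-5639237 (plus strand).
Sst: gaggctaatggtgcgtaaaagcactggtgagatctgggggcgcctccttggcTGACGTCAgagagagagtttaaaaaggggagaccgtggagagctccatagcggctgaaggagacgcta
Tac1: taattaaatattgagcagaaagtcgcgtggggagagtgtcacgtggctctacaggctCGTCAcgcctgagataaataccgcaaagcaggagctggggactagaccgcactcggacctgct
Npy: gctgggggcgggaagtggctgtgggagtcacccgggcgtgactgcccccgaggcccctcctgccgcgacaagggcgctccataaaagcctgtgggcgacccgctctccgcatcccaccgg
Vip: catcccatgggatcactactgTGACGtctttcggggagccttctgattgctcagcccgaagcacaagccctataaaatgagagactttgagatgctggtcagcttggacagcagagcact

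Somatostatin and cortistatin (Cort) are related peptides that bind the same receptors, and the similarity lies at the end of their coding regions. The last 12 codons of Sst before its stop (chr16:23889732-23889767, minus strand, GRCm38, GENCODE vM21) and the 12 codons of Cort that end 1 codon before its stop (chr4:149125270-149125305, minus strand) shared 30 of 36 bases (83.3%). The 2 runs are shown with identical bases in capitals. Whether reads of this stretch were assigned to more than 1 gene is not given in the sources used here.
Sst: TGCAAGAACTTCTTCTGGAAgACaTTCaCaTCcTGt
Cort: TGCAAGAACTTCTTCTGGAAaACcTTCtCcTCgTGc

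The libraries held 18347283 to 26555623 reads assigned to genes. Levels are given as CPM, the read count relative to the library size scaled by TMM. Fkbp5 had 47.7 to 63.4 CPM in the 12 Fkbp5lox/lox mice and 8.71 to 26.5 CPM in the 12 Fkbp5Nex mice, so that every library was on the side of its label. Neurod6, which carries Cre in Fkbp5Nex mice, had 156.7 to 354.5 CPM and 51.6 to 205.3 CPM, respectively. Mouse 8 of the Fkbp5lox/lox ELS group stood apart in the marker gene scores of its tissue. A score is the mean z-score of log2 CPM over the genes that mark a region or cell type. Its dentate granule score was 1.98 and its CA1 pyramidal score -2.91, and the other 23 mice lay between -1.18 and 0.85 and between -1.02 and 1.06. The thalamus score was high in this mouse (1.98) and in mouse 78 of the same group (1.84), compared with a highest value of 1.59 in the other mice. All 10 neuropeptide genes had at least 18 reads in every mouse and were among the 16209 genes tested.

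The neuropeptide mRNAs covered a wide range of levels. Scaled by exon length, as CPM per kilobase of exon (RPKM, over all 24 mice), Cck was highest with 201.4 ± 28.5 (SD), followed by Sst with 147.4 ± 32.7 and Npy with 55.4 ± 9.04. The length was the union of all annotated exons of a gene, which can exceed that of a single transcript and then lowers the RPKM. Cck lay above Sst in 23 of 24 mice, and Sst above Npy in 24 of 24. Penk followed with 12.2 ± 5.75 RPKM and lay above Vip, with 4.47 ± 1.24 RPKM, in 23 of 24 mice. The middle of the order was not resolved. Vip was above Pdyn (3.94 ± 2.62 RPKM) in 16 of 24 mice, and Pdyn, although ranked higher by its mean, was above Cort (3.93 ± 1.37 RPKM) in only 8 of 24. Likewise, Tac1 (2.33 ± 0.768 RPKM) was above Tac2 (2.27 ± 0.744 RPKM) in 14 of 24 mice. Crh was lowest with 1.07 ± 0.366 RPKM and lay below Tac2 in 23 of 24. Without the length scaling, 7 of the 10 genes kept their rank. By mean CPM, Tac1 (7.91) lay above Cort (2.66), the reverse of their order in RPKM.

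**Figure D1:**
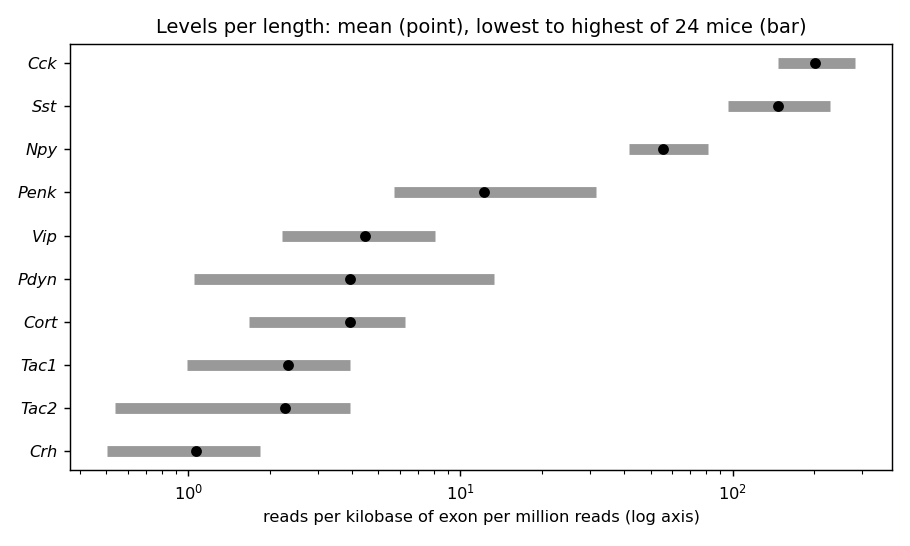
Level of each neuropeptide gene in RPKM (x, log axis) over 24 mice. Points are means and bars run from the lowest to the highest mouse, and they show Cck, Sst and Npy well above the others and overlapping bars from Vip to Tac2.

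Among the interneuron peptides, Sst (ENSMUSG00000004366, chromosome 16, 23889573 to 23890958, GRCm38) had similar levels in all groups. Its lowest, median and highest values were 81.5, 100.9 and 146.4 CPM in Fkbp5lox/lox controls and 82.2, 101.3 and 140.9 CPM in Fkbp5lox/lox ELS mice. In Fkbp5Nex controls they were 69.2, 107.1 and 132.7 CPM, and in Fkbp5Nex ELS mice 81.7, 101.5 and 164.4 CPM. The 4 ranges overlapped over most of their length. Cort (ENSMUSG00000028971, chromosome 4, 149125034 to 149126763), the relative of Sst, was far lower. Its means were 2.49 ± 1.12 and 2.93 ± 0.932 CPM in Fkbp5lox/lox control and ELS mice and 2.23 ± 0.577 and 2.99 ± 1.0 CPM in the corresponding Fkbp5Nex groups (SD, n = 6 each), from 24 to 94 reads per mouse. Cenps lies 358 bases from it on the same strand.

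Npy (ENSMUSG00000029819), which dampens glutamate release, lies on chromosome 6 from 49822710 to 49829507, at a distance of 5.848 Mb from Neurod6, which carries the Cre insertion. In Fkbp5lox/lox mice it was even, with 28.8, 32.3 and 35.2 CPM (lowest, median, highest) in controls and 28.2, 32.5 and 36.4 CPM after ELS. The Fkbp5Nex mice spread further, with 23.6, 29.0 and 46.0 CPM in controls and 25.0, 28.0 and 39.1 CPM after ELS, and the ranges of both genotypes overlapped. Cck (ENSMUSG00000032532, chromosome 9, 121489824 to 121495694) ran from 234.9 to 298.7 CPM in Fkbp5lox/lox controls (median 272.9), from 215.4 to 296.2 CPM in Fkbp5lox/lox ELS mice (268.4), from 190.9 to 367.9 CPM in Fkbp5Nex controls (247.2) and from 250.2 to 299.2 CPM in Fkbp5Nex ELS mice (264.3). Fkbp5Nex controls thus held the lowest and the highest mouse. For Vip (ENSMUSG00000019772, chromosome 10, 5639218 to 5647617), the group means lay between 13.9 ± 3.16 and 16.2 ± 1.64 CPM, and mice between 7.56 and 27.4 CPM. Crh (ENSMUSG00000049796, chromosome 3, 19693401 to 19695396) encodes corticotropin-releasing hormone, which starts the endocrine stress response in the hypothalamus and is made by interneurons in the hippocampus. It had 18 to 50 reads per mouse. Its lowest, median and highest values were 0.917, 1.28 and 1.96 CPM in Fkbp5lox/lox controls and 0.666, 0.976 and 2.05 CPM in Fkbp5lox/lox ELS mice, compared with 0.955, 1.38 and 2.22 CPM in Fkbp5Nex controls and 1.07, 1.75 and 2.43 CPM in Fkbp5Nex ELS mice. The median was lowest in Fkbp5lox/lox ELS mice and highest in Fkbp5Nex ELS mice, with overlapping ranges.

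The opioid precursors varied most. Pdyn (ENSMUSG00000027400, chromosome 2, 129686565 to 129699844) encodes the dynorphins, ligands of the kappa receptor. In Fkbp5lox/lox controls its lowest, median and highest values were 10.1, 12.5 and 17.9 CPM, and in Fkbp5lox/lox ELS mice 4.04, 13.4 and 38.4 CPM, the highest being mouse 8. Fkbp5Nex controls had 3.04, 6.43 and 21.3 CPM and Fkbp5Nex ELS mice 4.38, 8.09 and 14.8 CPM. Among the Fkbp5Nex controls, 5 of 6 mice lay below every Fkbp5lox/lox control, and the remaining one, mouse 12, lay above every one of them. Penk (ENSMUSG00000045573, chromosome 4, 4133531 to 4138819) encodes the enkephalins and overlaps A830012C17Rik on the opposite strand, so that its counts are uncertain where strand was not used. It ran from 9.32 to 51.6 CPM over the 24 mice. The highest values were 51.6 CPM in mouse 52 and 34.8 CPM in mouse 12 of the Fkbp5Nex controls, followed by 34.4 CPM in mouse 74 of the Fkbp5lox/lox controls. In the ELS groups the highest values were 20.3 CPM (Fkbp5lox/lox) and 23.8 CPM (Fkbp5Nex).

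Of the tachykinin precursors, Tac1 (ENSMUSG00000061762, chromosome 6, 7554879 to 7565834) encodes substance P and neurokinin A and had group means between 7.66 ± 2.93 and 8.46 ± 2.77 CPM (SD, n = 6 each). Tac2 (ENSMUSG00000025400, chromosome 10, 127724478 to 127731768) encodes neurokinin B. Its lowest, median and highest values were 2.51, 3.16 and 4.2 CPM in Fkbp5lox/lox controls, 0.740, 2.67 and 4.22 CPM in Fkbp5lox/lox ELS mice, 1.63, 2.88 and 4.91 CPM in Fkbp5Nex controls and 2.36, 3.04 and 5.40 CPM in Fkbp5Nex ELS mice. The lowest of all was mouse 8, with 20 reads. Extremes of several genes fell on the same mice. Mouse 44 was the highest of the Fkbp5lox/lox controls for 8 of the 10 genes, mouse 68 the highest of the Fkbp5lox/lox ELS mice for 6 and mouse 52 the highest of the Fkbp5Nex controls for 6, while mouse 8 was the lowest Fkbp5lox/lox ELS mouse for 6.

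**Figure D2:**
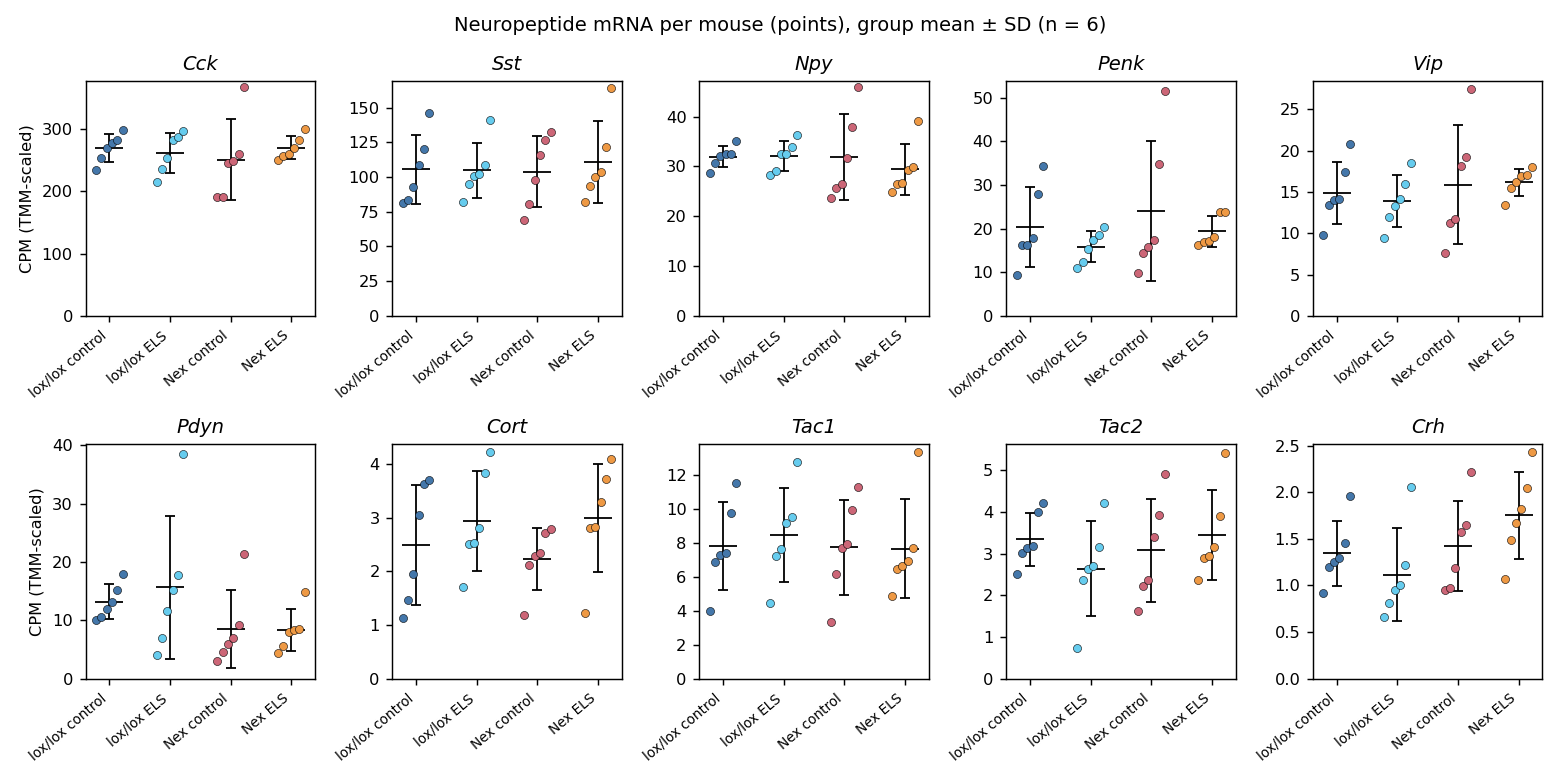
CPM (y, TMM-scaled, from 0) of the 10 neuropeptide genes in the 4 groups (x), with 1 point for each mouse and the group mean ± SD (n = 6). The groups overlap in every panel, and single high mice stand out for Pdyn (38.4 CPM in mouse 8, 21.3 CPM in mouse 12) and for Penk (51.6 CPM).

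Neuropeptide mRNAs varied more between mice of the same group than most genes did. The SD of log2 CPM within groups was larger than the median of all tested genes (0.18) for each of the 10. The comparison was not matched for expression level. The SD was lowest for Cck (0.21) and Npy (0.23), above that of only 57.8% and 62.1% of tested genes. It was highest for Penk (0.59) and Pdyn (0.81). In the case of Pdyn it exceeded that of 99% of tested genes, and the highest and lowest mouse differed 12.6-fold. Crh (0.43), Tac2 (0.55) and Cort (0.55) had few reads, and counting error adds to their spread. Reads per mouse were 18 to 50 for Crh, 20 to 106 for Tac2 and 24 to 94 for Cort.

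ELS in Fkbp5lox/lox mice, the comparison in which the study sought the effects of early adversity in wild types, moved none of the 10 genes past an FDR of 0.02 in edgeR's quasi-likelihood test with 5 surrogate variables. Over all 16209 genes the share called was 0%. Log2 fold changes were small for Sst (-0.014, standard error 0.080), Npy (0.062, standard error 0.092) and Cck (-0.029, standard error 0.066). At an unadjusted p under 0.05, 1 of 10 neuropeptide genes was found compared with 4.86% of all genes. With DESeq2 this was 0 of 10 and 4.08%, and in edgeR without surrogate variables 0 of 10 and 2.76%. The gene was Pdyn, with -0.43 (standard error 0.19, adjusted p = 0.954), although its mean CPM was higher after ELS (15.6 ± 12.3 compared with 13.1 ± 3.0, SD, n = 6 each). Without surrogate variables its log2 fold change was 0.26, and without mouse 8 it was -0.27. The median over the 10 genes was -0.022, compared with 0.0025 over all genes tested.

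In Fkbp5Nex mice ELS likewise moved none of the 10 genes past the threshold, and the share called over all genes was 0%. Without adjustment, 1 of 10 had a p under 0.05 (2.8% of all genes). With DESeq2 this was 2 of 10, Vip and Penk, and 2.1% of all genes, and without surrogate variables 0 of 10 and 3.06%. The gene under 0.05 in edgeR was Penk, with 0.49 (standard error 0.21, adjusted p = 0.9996 in edgeR's quasi-likelihood test). Its sign turned without surrogate variables, to -0.31, and its mean was 23.98 ± 16.01 CPM in controls and 19.3 ± 3.51 CPM after ELS. The values of the other 9 genes lay between -0.00053 for Npy and 0.34 for Tac2 (standard error 0.22). The median was 0.13 over the 10 genes and 0.0037 over all genes.

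For genotype under control rearing, all 10 log2 fold changes were negative (Fkbp5Nex minus Fkbp5lox/lox), with a median of -0.20 compared with -0.0013 over all genes. None passed the FDR of 0.02, while 8 of 16209 genes (0.0494%) did, and DESeq2 called 53 genes and 0 of the 10. At an unadjusted p under 0.05 there were 3 of 10, compared with 8.69% of all genes, and with DESeq2 3 of 10, compared with 7.75%. Pdyn had -0.72 (standard error 0.18, adjusted p = 0.130). Cck had -0.19 (standard error 0.061, adjusted p = 0.350) and Sst -0.16 (standard error 0.074, adjusted p = 0.558), each value taken from the edgeR fit. Without surrogate variables the values were -0.10 for Cck, -0.021 for Sst and -0.62 for Pdyn, the median over the 10 genes was -0.014, and 0 of 10 had an unadjusted p under 0.05, compared with 4.23% of all genes. An exact two-sided permutation test of the mean log2 CPM of Pdyn, 6 mice against 6, gave a difference of -0.88 and p = 0.0584. Without mouse 74 of the Fkbp5lox/lox controls the log2 fold change of Pdyn was -0.37, without mouse 12 of the Fkbp5Nex controls -0.39 and without mouse 32 of the same group -1.0 (adjusted p = 0.0232, edgeR).

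For genotype after ELS, none of the 10 genes passed the FDR of 0.02. The threshold was passed by 2 of 16209 genes (0.0123%), Fkbp5 and RP23-287D23.1, the latter named here for completeness after its value was seen. Without adjustment 0 of 10 had a p under 0.05, compared with 6.59% of all genes, and with DESeq2 0 of 10, compared with 5.68%. The largest log2 fold changes were 0.40 for Penk (standard error 0.21) and 0.40 for Crh (standard error 0.21), with adjusted p-values of 0.762 in edgeR's quasi-likelihood test. Without surrogate variables 2 of 10 had an unadjusted p under 0.05 (4.47% of all genes), Crh with 0.68 and Pdyn with -0.93. For Crh, the exact two-sided permutation test gave a difference of 0.66 and an unadjusted p = 0.0411, 1 of 50 such tests for 10 genes and 5 comparisons.

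The interaction of genotype and ELS, taken as the ELS effect in Fkbp5Nex minus that in Fkbp5lox/lox mice, asks whether the response to ELS differs with the deletion. None of the 10 genes passed the FDR of 0.02, as was the case for 0% of all genes. Without adjustment 2 of 10 had a p under 0.05 (4.02% of all genes). With DESeq2 this was 0 of 10 (3.3%), and without surrogate variables 0 of 10 (2.05%). The genes under 0.05 in edgeR were Penk, with 0.63 (standard error 0.30), and Pdyn, with 0.59 (standard error 0.27), both at an adjusted p of 0.9995 in edgeR. Without surrogate variables they were 0.048 and -0.31. Crh had 0.47 (standard error 0.30) and 0.60 without surrogate variables. The median was 0.16 over the 10 genes and close to 0 over all genes (-2.0e-05). In none of the 4 comparisons between 2 groups did the CPM ranges of the groups lie apart for any of the 10 genes. Over all genes tested, the ranges lay apart for 0.0925% and 0.0679% with ELS in Fkbp5lox/lox and Fkbp5Nex mice and for 0.16% and 0.173% with genotype in controls and after ELS.

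**Figure D3:**
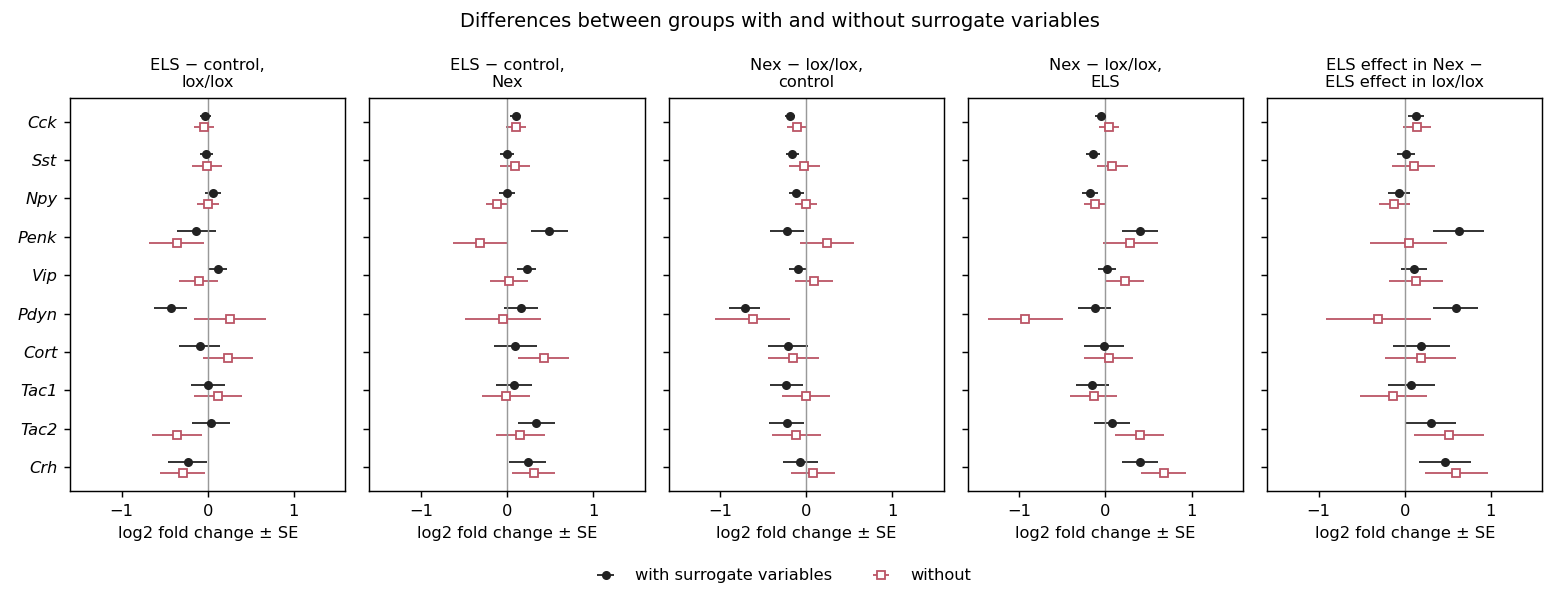
Log2 fold changes (x) of the 10 neuropeptide genes in the 4 comparisons between groups and in their interaction, each with its standard error. Filled points are from the model with 5 surrogate variables and open squares from the model without them, and the pair lies on opposite sides of 0 for 15 of the 50 values, among them Pdyn (-0.43 and 0.26) and Penk (0.49 and -0.31).

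Markers of dentate granule cells moved with Pdyn. Of the 10 markers tested, 3 (Npnt, Prox1 and Dsp, named after their values were seen) were lower in Fkbp5Nex than in Fkbp5lox/lox controls past the FDR of 0.02, and 8 were lower at an unadjusted p under 0.05 (8.69% of all genes in either direction), with a median log2 fold change of -0.64. The summed level of the list ran from 339.2 to 550.0 CPM in Fkbp5lox/lox controls, from 332.8 to 1034 CPM in Fkbp5lox/lox ELS mice, from 187.1 to 678.1 CPM in Fkbp5Nex controls and from 220.2 to 556.0 CPM in Fkbp5Nex ELS mice. None of the markers was at 0. Of the 6 choroid plexus markers tested, 1 was lower in Fkbp5Nex controls past the FDR of 0.02 and 6 at an unadjusted p under 0.05 (median -1.30). Their summed levels ran from 27.4 to 4658 CPM in Fkbp5lox/lox and from 26.2 to 3468 CPM in Fkbp5Nex controls. Of 9 thalamus markers, 4 were higher at an unadjusted p under 0.05 (median 0.46). The part of either list in the values of the peptides was not tested. The mean dentate granule score was 0.34 ± 0.33 in Fkbp5lox/lox controls and -0.54 ± 0.75 in Fkbp5Nex controls (SD, n = 6 each). With the dentate granule score as a covariate in place of the surrogate variables, chosen after seeing the data, the log2 fold change of Pdyn for genotype in controls was 0.17 (standard error 0.18, adjusted p = 0.757) and that for ELS in Fkbp5lox/lox mice -0.33 (standard error 0.16, adjusted p = 0.998, edgeR's quasi-likelihood test). For genotype after ELS the same covariate gave 0.46 for Pdyn (standard error 0.20, adjusted p = 0.792, edgeR's quasi-likelihood test), compared with -0.12 with the surrogate variables. Fewer granule cells in a punch and less Pdyn mRNA per cell cannot be told apart in bulk tissue.

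Other precursors, enzymes, granins and receptors of the peptide system showed no gene past the threshold either. Of 51 other peptide precursors, 21 were expressed highly enough to be tested, and 0 passed the FDR of 0.02 in any of the 5 comparisons. The smallest p belonged to Gal, the precursor of galanin, with -1.98 (standard error 0.48, adjusted p = 0.0991) for genotype in controls and -1.28 (standard error 0.42, adjusted p = 0.621) for genotype after ELS in edgeR's quasi-likelihood test. Gal had only 0 to 46 reads per mouse. Nucb2, the precursor of nesfatin, had -0.20 (standard error 0.058, adjusted p = 0.591) for genotype after ELS, and Gnrh1, that of gonadotropin-releasing hormone, -0.85 (standard error 0.35, adjusted p = 0.954) for ELS in Fkbp5lox/lox mice. Gnrh1 had only 4 to 20 reads per mouse. Its mean was 0.670 CPM in Fkbp5lox/lox controls and between 0.398 and 0.486 CPM in the other groups. A gene near the filter tends to pass through the group where it is high, so that no decrease is read from this value. Between 0 and 2 of the 21 were lower and 0 were higher at an unadjusted p under 0.05 in each comparison, and DESeq2 called 0 at the FDR. The 2 occurred for genotype in controls and for genotype after ELS, where 8.69% and 6.59% of all genes were under 0.05 in either direction. Gal was among them both times, and Gnrh1 made up the count for ELS in Fkbp5lox/lox mice. In the other comparisons this share was 2.8% to 4.86%.

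All 18 granins and processing enzymes were tested and 0 passed the FDR of 0.02. The vesicle protein chromogranin B (Chgb) had the smallest p, for ELS in Fkbp5lox/lox mice (0.22, standard error 0.056, adjusted p = 0.954), and the corresponding interaction was -0.21 (standard error 0.076, adjusted p = 0.9995). After ELS in Fkbp5lox/lox mice, 3 genes of this list had a positive value at an unadjusted p under 0.05, Chgb, Chga (0.19) and the convertase Pcsk5 (0.33), where 4.86% of all genes were under 0.05. For the interaction, the list had 3 lower, Chgb, the granin-like precursor Vgf (-0.19) and Pcsk5 (-0.43), and 1 higher. Over all genes, 4.02% were under 0.05 for the interaction in either direction. Genotype in controls had 1 higher and 1 lower, compared with 8.69% of all genes. ELS in Fkbp5Nex mice and genotype after ELS had 0 (2.8% and 6.59% of all genes), and DESeq2 called 0 at the FDR. The median of the list stayed between -0.010 and 0.036 in the 5 comparisons.

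Of 25 receptors of these peptides, with the Crh binding protein, 20 were tested and 0 passed the FDR of 0.02 in edgeR, while DESeq2 called 1, Adcyap1r1 for genotype in controls. Adcyap1r1, which binds PACAP and, with lower affinity, Vip, had -0.25 (standard error 0.056, adjusted p = 0.0877) for genotype in controls in edgeR's quasi-likelihood test, with means of 202.1 CPM in Fkbp5lox/lox and 164.8 CPM in Fkbp5Nex controls. Vipr1 had -0.24 (standard error 0.10, adjusted p = 0.506). Oprm1, the mu opioid receptor, had 5 to 36 reads per mouse and values of 0.47 for genotype in controls and -0.52 for ELS in Fkbp5Nex mice (standard error 0.19 and 0.20). Sstr4, a somatostatin receptor, had 0.41 (standard error 0.12, adjusted p = 0.591, edgeR) for genotype after ELS. For genotype in controls, 5 receptor genes were lower and 1 higher at an unadjusted p under 0.05, where 8.69% of all genes were under 0.05 in either direction, with a list median of -0.14 compared with -0.0013 over all genes.

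Which neuropeptides varied together was examined on deviations of log2 CPM from the group means, over the 24 mice. The points share their library, so that tissue composition enters every pair. Pearson's r was positive for 34 of 45 pairs, with a median of 0.27 and a range from -0.50 to 0.78. Together with 110 relations to marker scores, 155 relations were computed, and p-values from 100000 permutations within groups were adjusted over all of them. There were 5 pairs below an adjusted p of 0.05, all positive. Many genes outside the set also varied with these peptides. An r above 0.5 was found for 5.25% of tested genes with Sst, 6.05% with Npy and 5.43% with Vip. For Tac1, Tac2 and Crh the share was 3.88%, 2.54% and 3.3%. Npy and Vip had the highest r, with 0.78 (Spearman's rho 0.81, permutation p = 5e-05, adjusted p = 0.00129), and 0.63 when the 2 mice with the most extreme Npy values were left out. Vip and Tac2 had r = 0.72 (rho 0.76, permutation p = 0.00012, adjusted p = 0.00266) and 0.71 without the 2 farthest mice. Sst varied with Crh (r = 0.67, rho 0.65, permutation p = 0.00091, adjusted p = 0.0141) and with Tac1 (r = 0.62, rho 0.58, permutation p = 0.00326, adjusted p = 0.0297). With the 2 most extreme mice for Sst left out these were 0.65 and 0.74. Npy and Tac1 had r = 0.63 (rho 0.59, permutation p = 0.00182, adjusted p = 0.0217), and 0.51 without the 2 farthest mice. The 5 pairs also passed without mouse 8. After the surrogate variables were regressed out, 0 of them did. The adjusted permutation p of rho lay between 0.00052 and 0.0454 for each relation named here and in the scores that follow, except that of Pdyn to the immediate early genes.

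**Figure D4:**
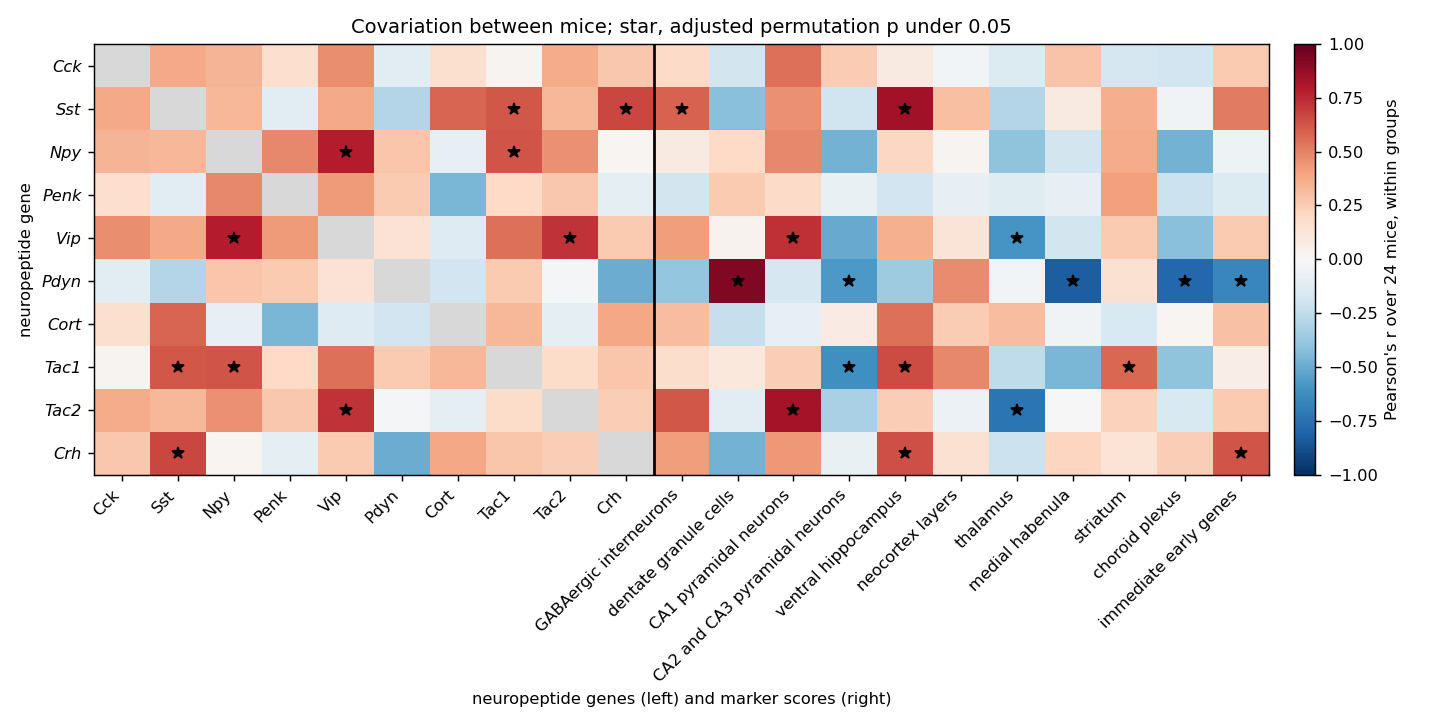
Pearson's r over 24 mice, on deviations from the group means, of each neuropeptide gene (rows) with the other neuropeptide genes (columns left of the line) and with 11 marker scores (right). Stars mark adjusted permutation p-values under 0.05, 5 pairs and 16 relations to scores, and grey fields are a gene with itself.

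Pdyn stood out by its relation to the tissue markers. Its r with the dentate granule score was 0.93 (rho 0.84, permutation p = 1e-05, the smallest that these permutations can give, adjusted p = 0.00052), 0.90 when the 2 mice with the most extreme scores were left out and 0.90 without mouse 8. Single markers of this list correlated with Pdyn with a median r of 0.81, highest for Prox1 (0.92), and 9 of 10 were positive. Pdyn was negatively related to the medial habenula score (r = -0.82, rho -0.76, permutation p = 2e-05, adjusted p = 0.00077) and to the choroid plexus score (r = -0.79, rho -0.85, permutation p = 3e-05, adjusted p = 0.00093). Without the 2 farthest mice these were -0.64 and -0.78. Of the 9 habenula markers only 5 were tested, and 4 others, among them the nicotinic receptor genes Chrnb3 and Chrnb4, did not pass the filter. Pou4f1, also untested, had 0 to 2 reads per mouse, whereas the tested Nwd2 had 738 to 1320 and Lrrc55 121 to 313. The score can therefore not be read as an amount of habenula tissue. Single tested markers of this list had an r with Pdyn from -0.57 to -0.030, with a median of -0.50. The relations of Pdyn to the CA2 and CA3 score (r = -0.57, rho -0.58, permutation p = 0.00251, adjusted p = 0.0278) and to the immediate early genes (r = -0.65, rho -0.51, permutation p = 0.00279, adjusted p = 0.0288) were weaker. They were -0.44 and -0.66 without the 2 farthest mice. For the immediate early genes the adjusted p was 0.126 with Spearman's rho and 0.0774 without mouse 8.

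Sst varied with the ventral hippocampus score (r = 0.84, rho 0.85, permutation p = 1e-05, adjusted p = 0.00052, 0.80 without the 2 farthest mice), and all 5 markers of that list were positive. Tac1 (r = 0.66, rho 0.59, permutation p = 0.00132, adjusted p = 0.0171, 0.73 without the 2 farthest) and Crh (r = 0.65, rho 0.67, permutation p = 0.00112, adjusted p = 0.0158, 0.67 without the 2 farthest) were related to the same score. Of its 5 markers, 4 were positive with Tac1 and 5 with Crh. The relation of Sst to the GABAergic interneuron score, from 18 genes with neuropeptides left out, was smaller (r = 0.59, rho 0.63, permutation p = 0.00415, adjusted p = 0.0343, 0.56 without the 2 farthest) and had an adjusted permutation p of 0.0910 without mouse 8. Of the 18 genes, 14 were positive with Sst, and single r ran from -0.548 to 0.798. Tac2 varied with the CA1 pyramidal score (r = 0.83, rho 0.71, permutation p = 0.00016, adjusted p = 0.0031, 0.70 without the 2 farthest) and inversely with the thalamus score (r = -0.73, rho -0.69, permutation p = 0.00031, adjusted p = 0.00534, -0.74 without the 2 farthest). Vip had r = 0.73 with the CA1 score (rho 0.87, permutation p = 1e-05, adjusted p = 0.00052, 0.78 without the 2 farthest) and r = -0.59 with the thalamus score (rho -0.61, permutation p = 0.0042, adjusted p = 0.0343, -0.52 without the 2 farthest, adjusted p = 0.0898 without mouse 8). The 3 remaining relations past 0.05 were those of Crh to the immediate early genes (r = 0.63, rho 0.67, adjusted permutation p = 0.0297, 0.62 without the 2 farthest) and of Tac1 to the CA2 and CA3 score (r = -0.61, rho -0.59, adjusted permutation p = 0.0483, -0.58 without the 2 farthest) and to the striatum score (r = 0.57, rho 0.69, adjusted permutation p = 0.0426, 0.56 without the 2 farthest). Each of these 3 rose above 0.05 without mouse 8, to 0.0630, 0.0630 and 0.0504. Npy, Cck, Penk and Cort had no relation to a score past 0.05, the largest r being 0.48, 0.55, 0.41 and 0.55. In all, 16 of 110 relations passed 0.05 and 10 of these also did without mouse 8. After the surrogate variables were regressed out, 0 of the 16 did, and r turned, for example, to 0.52 for Vip with thalamus and to -0.12 for Sst with the interneuron score.

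**Figure D5:**
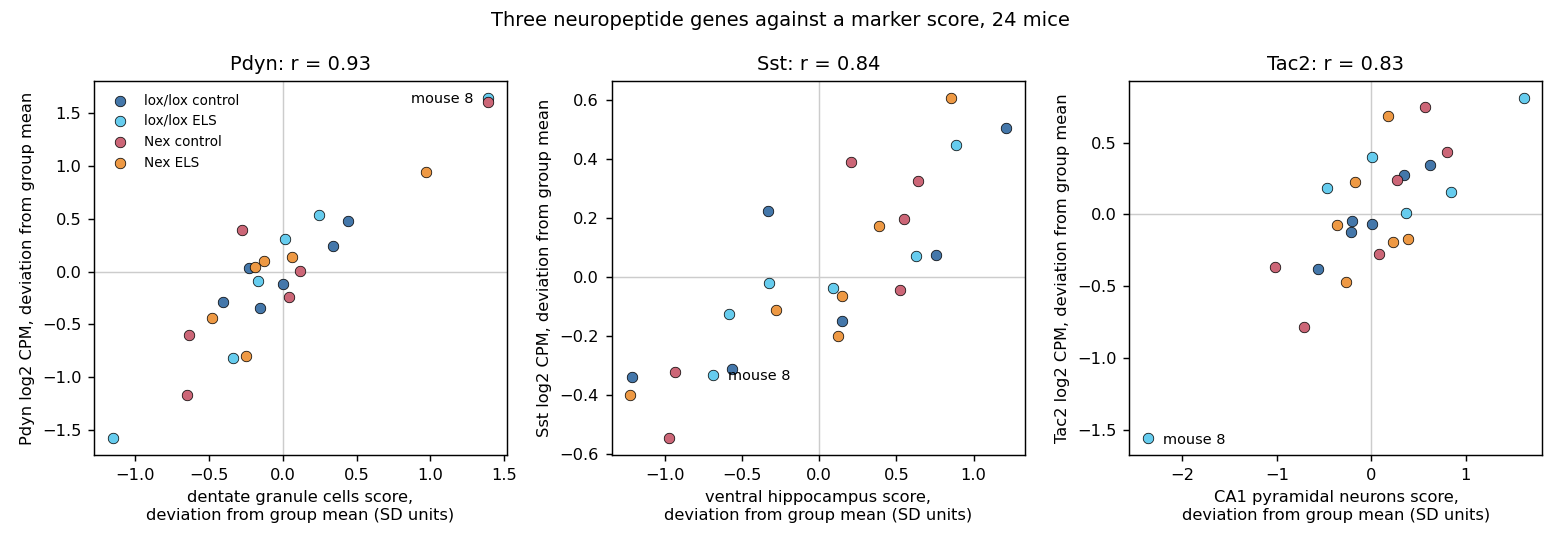
Deviations from the group means of log2 CPM (y) against deviations of a marker score (x, SD units) for Pdyn, Sst and Tac2, with 1 point for each of the 24 mice, coloured by group. Points rise along the diagonal in each panel (r = 0.93, 0.84 and 0.83), and mouse 8 lies at an end of the Pdyn and Tac2 panels.

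The genes whose expression was most like that of each peptide, by Pearson's r of the same deviations over 24 mice among 16208 other tested genes, are given as a description. For Pdyn they were A830036E02Rik (0.936), Cemip (0.927) and Ablim3 (0.925), and 11% of genes had an r above 0.5. For Sst they were Ly6h (0.918), Celf6 (0.914) and Zcchc18 (0.904), and for Cck, Prnp (0.889), Tspan13 (0.881) and Tmsb4x (0.878). Npy was closest to S100a10 (0.886), Gngt2 (0.851) and Syt5 (0.847), Vip to Mal2 (0.90), Sertm1 (0.871) and Tmsb10 (0.868), and Penk to Vim (0.836) and Cstb (0.816). The nearest genes of Tac1 were Pgrmc1 (0.861), Tdp1 (0.859) and Zcchc12 (0.824). Tac2 was closest to the interneuron transcription factor gene Dlx1 (0.846), then to Ankrd63 (0.842) and Nov (0.834), and Crh to Met (0.805), Spats2l (0.794) and Ntsr1 (0.778). Cort had the lowest values, with Chd3os (0.773), Fastkd1 (0.744) and Bri3bp (0.734).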

How the data were processed

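Bulk mRNA of hippocampal punches from 24 mice was used, with groups taken from the sample labels. The values deposited are raw counts for each gene, from HISAT2 2.0.5 alignments of read pairs counted with featureCounts 1.5.0-p3. Up to their filtering step these samples had been handled with those of another experiment. Genome build, annotation and strand are not given in the sources used here. Every column of the table belonged to 1 mouse. Genes that reached 10 counts in all 6 mice of some group were tested in R 4.3.3 with edgeR 4.0.16 (TMM, quasi-likelihood test, Benjamini-Hochberg) on 4 group means and 5 surrogate variables (sva 3.50.0, svaseq), at an FDR of 0.02. DESeq2 1.42.0 was an alternative. The steps were tested on simulated data. The groups explained 2.97% to 24% of the variance of single surrogate variables. Log2 CPM used a prior count of 2. The table holds no gene lengths, so exon lengths and positions come from GENCODE vM21. Adjusted p-values are over all tested genes.

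The 10 genes and all gene lists were chosen with earlier results of these data known. Named besides the 10 are Fkbp5, Neurod6, genes of the 3 pathway lists with the smallest p in a comparison, and the 3 genes nearest to each peptide. Not every gene this rule allows is printed. Outside it, Npnt, Prox1, Dsp, RP23-287D23.1, Chrnb3, Chrnb4, Pou4f1, Nwd2 and Lrrc55 were named after their values were seen.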

Additional observations from a re-analysis of the deposited data

Results flagged for a closer look

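In 3 of 40 combinations of gene and group, 1 mouse lay far from the other 5 by Dixon's criterion for 6 values, where chance alone gives about 2. Npy was 39.1 CPM in mouse 10 of the Fkbp5Nex ELS group, compared with 29.9 CPM in the next mouse. Tac1 was 13.3 CPM in the same mouse, compared with 7.70 CPM in the next. Pdyn was 21.3 CPM in mouse 12 of the Fkbp5Nex controls, compared with 9.14 CPM in the next, and this mouse also had the highest dentate granule score of its group (0.85).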

How the results depend on the processing

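In each of the 5 comparisons 0 of 10 neuropeptide genes passed the FDR of 0.02 under every alternative run, each mouse left out in turn included, and 0 passed 0.05 with all mice. Without mouse 32 of the Fkbp5Nex controls, Pdyn for genotype in controls had an adjusted p of 0.0232 (edgeR). Signs were less stable. Without surrogate variables they turned for 15 of 50 values. For ELS in Fkbp5lox/lox mice these were -0.11 for Vip, 0.26 for Pdyn, -0.36 for Tac2 and 0.24 for Cort, for ELS in Fkbp5Nex mice -0.31 for Penk, -0.047 for Pdyn and -0.011 for Tac1, for genotype in controls 0.094 for Vip, 0.24 for Penk and 0.075 for Crh, for genotype after ELS 0.081 for Sst, 0.043 for Cck and 0.035 for Cort, and for the interaction -0.31 for Pdyn and -0.13 for Tac1. With only the 12 mice compared, also without surrogate variables, the same genes turned in the 4 comparisons, with the values above except -0.043 for Pdyn and -0.00802 for Tac1 (ELS in Fkbp5Nex), 0.10 for Vip and 0.076 for Crh (genotype in controls), and 0.082 for Sst and 0.037 for Cort (genotype after ELS). Differences of mean log2 CPM turned to 0.0031 for Sst, -0.10 for Vip, -0.46 for Tac2 and 0.30 for Cort (ELS in Fkbp5lox/lox), -0.090 for Penk (ELS in Fkbp5Nex), 0.0049 for Vip, 0.12 for Penk and 0.049 for Crh (genotype in controls), 0.062 for Sst, 0.049 for Cck and 0.00029 for Cort (genotype after ELS) and -0.11 for Tac1 (interaction). Npy for ELS in Fkbp5Nex mice, close to 0, turned with RLE size factors (0.0013), filterByExpr (0.0038), no filter (0.017) and DESeq2 (0.00057), and Tac1 for ELS in Fkbp5lox/lox mice with DESeq2 (-0.015). With the dentate granule score as covariate, Pdyn turned to -0.047 (ELS in Fkbp5Nex), 0.17 (genotype in controls) and 0.46 (genotype after ELS). The cause was not tested.

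Leaving out 1 mouse turned 21 of the 50 values. Ranges for ELS in Fkbp5lox/lox mice were -0.068 to 0.074 for Sst, -0.49 to 0.099 for Penk, -0.13 to 0.20 for Tac2, -0.21 to 0.17 for Cort, -0.20 to 0.25 for Tac1, -0.0088 to 0.10 for Npy and -0.11 to 0.041 for Cck. For ELS in Fkbp5Nex mice they were -0.047 to 0.050 for Sst, -0.065 to 0.048 for Npy, -0.045 to 0.27 for Tac1 and -0.082 to 0.27 for Cort, for genotype in controls -0.47 to 0.0011 for Tac1 and -0.29 to 0.17 for Crh, for genotype after ELS -0.10 to 0.18 for Tac2, -0.24 to 0.14 for Cort, -0.041 to 0.092 for Vip and -0.32 to 0.056 for Pdyn, and for the interaction -0.091 to 0.058 for Sst, -0.13 to 0.24 for Tac1, -0.084 to 0.35 for Cort and -0.14 to 0.0049 for Npy.

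After the surrogate variables were regressed out, the median r over pairs was 0.089, 0 pairs and 2 marker relations passed 0.05 (Pdyn with the neocortex score, 0.66, and with the striatum score, 0.69), and r turned to -0.15 for Sst with Crh, -0.12 for Sst with the interneuron score, -0.029 for Vip with CA1, 0.52 for Vip with thalamus, 0.12 for Pdyn with CA2 and CA3 and -0.21 for Crh with ventral hippocampus. Without mouse 8, an alternative chosen after seeing the data, 10 marker relations passed. Each mouse belonged to 1 group only, and the labels do not give the litter, so that no analysis paired or blocked by litter was possible. Crh, Tac2 and Cort had at most 106 reads per mouse, so that small differences were not detectable at this depth, and a value that missed the threshold does not show that groups were alike.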
